A study of Mus musculus with 11 samples.

Results

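Heat shock chaperones were followed as 10 genes in Tregs sorted from tumors and spleens: the inducible HSP70 genes Hspa1a and Hspa1b, the constitutive HSP70 gene Hspa8, the HSP110 gene Hsph1, the J-domain gene Dnajb1, the cytosolic HSP90 genes Hsp90aa1 and Hsp90ab1, the mitochondrial chaperonin genes Hspd1 and Hspe1, and Hsf1, which encodes the main transcription factor of the heat shock response. They were taken by symbol from the 14604 genes listed in the deposited expression table. All 10 were listed, and all 10 passed the filter on low values that left 13897 genes for testing.

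RNA was sequenced from 11 libraries of live CD4+GITR+CD25+ cells, 6 from spleens and 5 from tumors grown from MC38 cells, a mouse colon adenocarcinoma line. Foxp3, the defining factor of Tregs, was not part of the sort. Spleens were taken from the mice that gave the tumors, so the tissues share animals, but the labels do not say which libraries share a mouse and the tests below treat all 11 as independent. Wild-type (WT) mice were CD177flox/flox and gave 3 spleen and 3 tumor libraries. Knockout (KO) mice were CD177flox/flox/FOXP3-CreYFP and gave 3 spleen and 2 tumor libraries. The floxed Cd177 allele was therefore shared by all mice, and Cre was made only where the Foxp3 promoter was active. The labels give no age. Cd177 itself was not analysed here, so the genotype labels were not checked against the targeted gene. Levels are given as log2(n + 1), where n is the gene-level value that the authors took from their estimated counts, and a difference of 1 on this scale is close to a doubling for all but the lowest genes. The scaling of n is not stated, so levels are compared between libraries for each gene and not between genes.

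HSP70 proteins bind exposed hydrophobic stretches of unfolded or newly made proteins in a cycle driven by ATP. J-domain proteins such as DNAJB1 bring clients to them, and nucleotide exchange factors such as HSPH1 reset them. HSP90 acts later, on clients such as kinases and steroid receptors, and HSPD1 with its lid HSPE1 forms the folding chamber of the mitochondrial matrix. In unstressed cells HSF1 is held inactive by chaperones. Heat, oxidants and misfolded proteins free it to bind heat shock elements, which are alternating repeats of the bases GAA and TTC, and Hspa1a and Hspa1b are among its most strongly induced targets.

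The libraries differed in more than tissue. Tumors were dissociated with enzymes and by mechanical force and their mononuclear cells taken from a density gradient, while spleens were pressed through a strainer and their red cells lysed, so tissue and cell preparation cannot be told apart for any gene below. All 17 myeloid markers tested were higher in tumor libraries, and their summed level was 8.82 to 9.87 in spleen and 14.26 to 14.70 in tumor. Lyz2, the lysozyme of macrophages and neutrophils, averaged 4.75 ± 1.18 in spleen and 12.35 ± 0.30 in tumor (SD, n = 6 and 5), and the 6 fibroblast markers tested were higher as well. T-cell and Treg genes were present throughout, with Foxp3 at 6.35 ± 0.30 in spleen and 5.50 ± 0.55 in tumor, and their summed level was 11.23 to 11.39 in spleen and 10.70 to 11.32 in tumor. Of the 13 tested, 8 were lower and 2 higher in tumor (limma adjusted p below 0.05). The 2 higher were Tnfrsf18, by 1.08, and Ctla4, by 0.57, and the largest falls were those of Lck (−1.28) and Cd247 (−1.27). Among 10 markers of CD8 T and NK cells, 6 were higher and 1 lower. In these bulk samples, fewer cells of a type and less RNA per cell cannot be told apart. The part of other cell types in the differences below was not tested. Totals of n were 712832 to 844331 in spleen and 1103159 to 1304548 in tumor. In every library 31.4% to 42.5% of n lay in a single row, Gm12896.

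Tumor and spleen libraries were compared across all 13897 genes by limma, with Benjamini-Hochberg adjusted p-values and a call below 0.05. Of the 10 genes, 9 were called, 8 as higher and 1 as lower in tumor in the deposited values, 7 and 2 after median centring of each library, 3 and 4 after quantile normalization, and 3 and 3 after scaling to equal totals. Calls were common among all genes, at 43.1% higher and 35.9% lower, so a call by itself says little about a chaperone gene. The median difference was 0.54 over the 10 genes and 0.08 over all genes tested. The 5 tumor libraries lay wholly above the 6 spleen libraries for 6 of the 10 genes, against 35.2% of all genes, and wholly below for 1, against 28.4%. Hspa1a had the largest difference among the 10, with a larger rise in only 1.76% of all genes tested.

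**Figure D1:**
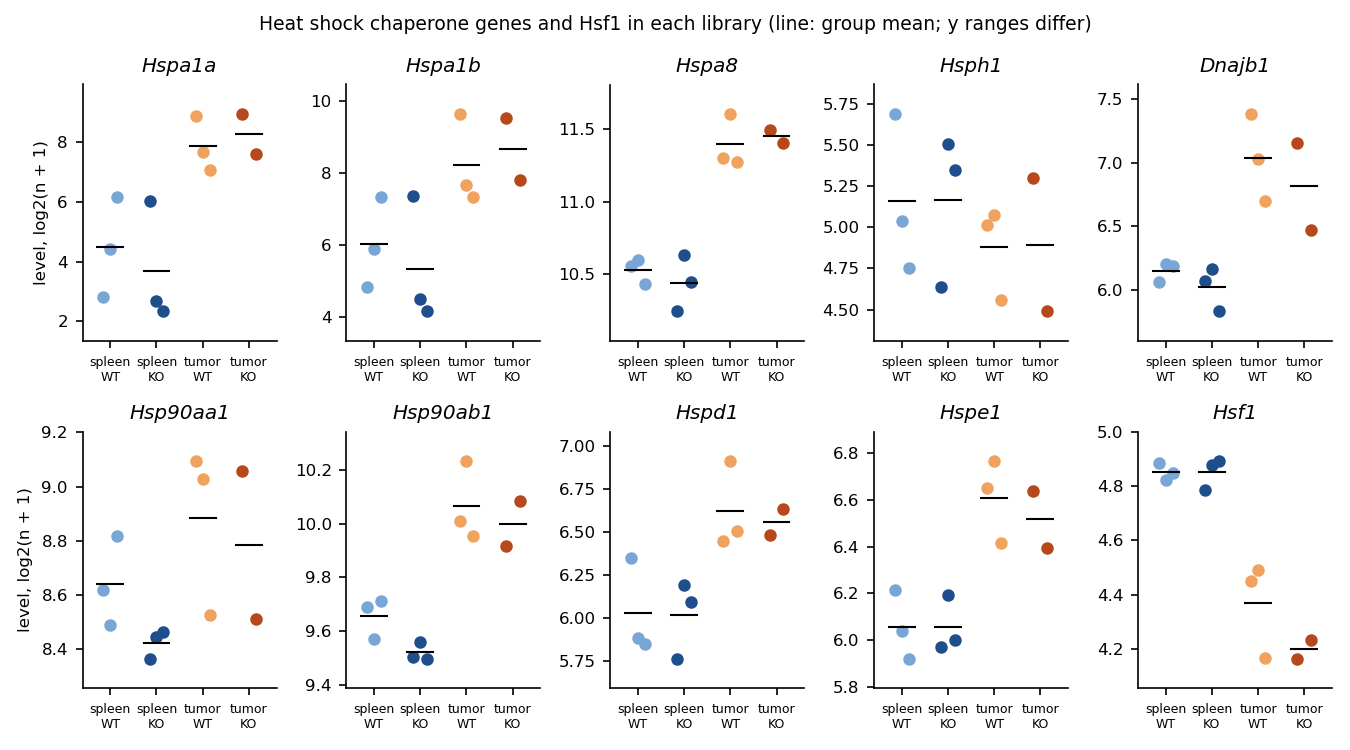
Level of each of the 10 genes in each of the 11 libraries, on the log2(n + 1) scale with a separate y range for each gene. Points are libraries and lines are group means. Hspa1a runs from 2.33 to 6.17 in spleen and from 7.07 to 8.95 in tumor, while Hsf1 is the only gene whose tumor libraries all lie below its spleen libraries.

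Hspa1a and Hspa1b encode nearly the same inducible HSP70 protein and lie near each other on the minus strand of chromosome 17, at chr17:34969190-34972156 and chr17:34956436-34959238 in GRCm38. Their transcripts are hard to separate. Of the 31-base words in the GENCODE M21 transcripts of Hspa1a, 63.8% also occur in Hspa1b, and 67.7% of those of Hspa1b occur in Hspa1a, so the split of reads between them is uncertain and their sum is given as well. A non-coding gene, Gm20481, overlaps Hspa1a on the other strand. The 250 bases before each start site (RefSeq, GRCm38.p6, minus strand) are shown because these genes are known HSF1 targets, with a match to GAANNTTC, a pair of heat shock element units, in capitals. The stretches lie at chr17:34972157-34972406 and chr17:34959239-34959488.

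Hspa1a: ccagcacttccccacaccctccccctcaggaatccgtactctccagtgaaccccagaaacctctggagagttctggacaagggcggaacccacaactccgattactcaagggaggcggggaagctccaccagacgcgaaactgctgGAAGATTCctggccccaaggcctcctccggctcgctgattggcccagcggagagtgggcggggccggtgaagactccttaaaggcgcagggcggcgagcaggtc

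Hspa1b: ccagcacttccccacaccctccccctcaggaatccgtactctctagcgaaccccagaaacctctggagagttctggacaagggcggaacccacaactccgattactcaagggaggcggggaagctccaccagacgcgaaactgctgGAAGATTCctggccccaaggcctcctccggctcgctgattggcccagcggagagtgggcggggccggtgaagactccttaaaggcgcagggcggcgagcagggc

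The promoters differ at 3 of these 250 bases, and the element begins at position −104 from the start in each. GAANNTTC or TTCNNGAA, searched on either strand, occurs in 15.1% of the 32851 RefSeq promoter windows (250 bases before and 50 after a start), so a match of this length is common.

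Hspa1a was low and very uneven in the spleen libraries. The WT spleen libraries stood at 2.81, 4.44 and 6.17 and the KO spleen libraries at 6.02, 2.68 and 2.33. In tumor, the WT libraries stood at 8.87, 7.69 and 7.07 and the KO libraries at 8.95 and 7.60. Every tumor library was above every spleen library, and the difference was 3.96 (SE 0.72, adjusted p = 0.000215), a 15.6-fold rise. The size was loosely set, at 10.6-fold within WT and 24.3-fold within KO, and the difference was 3.37 after scaling each library to equal totals. The spread in spleen was itself unusual, since only 0.0720% of all genes tested had a larger SD over the 6 spleen libraries than Hspa1a.

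Hspa1b rose by 2.72 (SE 0.66, adjusted p = 0.00204) and followed the same libraries. Its spleen levels were 4.84, 5.89 and 7.33 in WT and 7.37, 4.51 and 4.15 in KO. Its tumor levels were 9.64, 7.67 and 7.35 in WT and 9.54 and 7.80 in KO. The highest spleen library stood just above the lowest tumor library, so the groups overlapped.

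Summing n over both genes within each library removed the question of how reads were split between them. It does not settle reads shared with other genes. Gm20481 holds 17.4% of the Hspa1a words and 13.5% of the Hspa1b words, and Gm10501 holds 12.1% and 11.1%. The summed level was 6.07 ± 1.52 in spleen and 9.23 ± 0.98 in tumor (SD, n = 6 and 5), with no overlap. The difference was 3.17 (exact two-sided permutation test, p = 0.00433, adjusted p = 0.0130 over 6 such measures), and 0.00433 is the smallest p that 6 against 5 libraries allow. The adjusted p was 0.0649 after quantile normalization and 0.0519 after equal totals, with differences of 2.56 and 2.55 (exact permutation tests).

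Hspa8, the constitutive HSP70 that carries most routine folding, rose by 0.93 (SE 0.093, adjusted p = 8.94e-07), the smallest adjusted p of the 10 genes, but its difference was −0.038 after quantile normalization (adjusted p = 0.769). Its spleen libraries ran from 10.24 to 10.63 with a median of 10.50, and its tumor libraries stood at 11.31, 11.61, 11.28, 11.50 and 11.41. The groups were separate and narrow. The Hspa1 sum gained 2.23 more than Hspa8 within libraries, which did not pass the correction (exact permutation p = 0.0433, adjusted p = 0.0866). Of the words in Hspa8 transcripts, 44.8% occur in other genes, and the gene hosts Snord14c, Snord14d and Snord14e.

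Hsph1, the large HSP70 relative that exchanges nucleotide on HSP70, did not rise with its partners. Its spleen levels ran from 4.64 to 5.69 with a median of 5.19, and its tumor levels were 5.02, 5.07, 4.56, 5.30 and 4.49. The groups overlapped, and the difference of −0.27 was not called (SE 0.20, adjusted p = 0.234). After median centring, quantile normalization and equal totals the difference was −0.50, −0.55 and −0.88 and was called each time. Hsph1 fell by 1.21 against Hspa8 within libraries with no overlap between tissues (exact permutation p = 0.00433, adjusted p = 0.0130), or by 0.52 after quantile normalization (adjusted p = 0.0649).

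Dnajb1, the main J-domain partner of HSP70 in stressed cells, rose by 0.86 (SE 0.14, adjusted p = 9.44e-05), and this call was lost after equal totals, at 0.23 (adjusted p = 0.161). Its tumor libraries stood at 7.38, 7.03 and 6.70 in WT and 7.16 and 6.47 in KO. All lay above the spleen libraries, which ran from 5.83 to 6.20 with a median of 6.12. Within libraries, Dnajb1 minus Hspa8 was −4.40 ± 0.17 in spleen and −4.47 ± 0.37 in tumor (SD), a change of −0.078 that did not pass the exact permutation test (p = 0.658) and was 0.40 after quantile normalization (adjusted p = 0.0935).

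The HSP90 genes had small differences whose sign depended on the scaling. Hsp90ab1, the constitutive form, rose by 0.45 (SE 0.074, adjusted p = 9.11e-05) in the deposited values, from 9.50 to 9.71 in spleen with a median of 9.57 to 10.01, 10.23, 9.95, 9.92 and 10.08 in tumor, and had differences of −0.25 after quantile normalization (called) and −0.18 after equal totals (not called). Hsp90aa1, the inducible form, had tumor levels of 9.09, 9.03, 8.53, 9.06 and 8.51 and spleen levels from 8.37 to 8.82 with a median of 8.48. The groups overlapped. Its difference of 0.31 (SE 0.13, adjusted p = 0.0376) was not called when any of 7 of the 11 libraries was left out in turn (adjusted p up to 0.0962), and it turned to −0.58 after quantile normalization and −0.32 after equal totals, called each time. Within libraries the pair did not separate by tissue (difference −0.14, exact permutation p = 0.325, adjusted p = 0.487). Words shared with other genes made up 51.5% of Hsp90aa1, mostly with Gm12346 (46.65%), and 13.2% of Hsp90ab1.

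The mitochondrial chaperonin genes Hspd1 and Hspe1 stand head to head on chromosome 1, at chr1:55077835-55088243 on the minus strand and chr1:55088132-55091307 on the plus strand, and share a promoter. Their outer exons overlap on opposite strands, and whether counting used strand is not given in the sources used here. A window of 30 bases is shown because it holds a run of 4 alternating units that reads as the same motif on either strand. It lies at chr1:55088053-55088082 (RefSeq, GRCm38.p6), is given on the plus strand, and has the 4 units TTCNNGAANNTTCNNGAA in capitals.

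Hspe1 and Hspd1: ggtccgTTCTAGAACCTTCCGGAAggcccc

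Runs of 4 units on either strand occur in 0.0244% of all promoter windows, and runs of 3 (TTCNNGAANNTTC or GAANNTTCNNGAA) in 0.603%. The run of 4 begins at position −89 from the Hspe1 start. For Hspd1 it lies between 2 annotated starts and begins at position −144 from the inner one. Hsph1, at chr5:149614287-149636376, holds a run of 3 that begins 16 or 37 bases after its 2 annotated starts and a TTCNNGAA further upstream. Neither word occurs in the Dnajb1 windows. These matches overlap each other where a longer run contains a shorter one, and they describe letters, not binding. Promoters were found for 6 of the 10 genes, and those of Hspa8, Hsp90aa1, Hsp90ab1 and Hsf1 were not analysed here.

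Hspd1 rose by 0.57 (SE 0.12, adjusted p = 0.000514) and Hspe1 by 0.52 (SE 0.083, adjusted p = 7.41e-05), while after equal totals their differences were −0.048 and −0.10 and not called. Both calls were also lost after quantile normalization, at 0.13 (adjusted p = 0.314) and 0.078 (adjusted p = 0.428). Hspd1 stood at 6.45, 6.91, 6.50, 6.48 and 6.63 in tumor and ran from 5.76 to 6.35 in spleen with a median of 5.99. Hspe1 stood at 6.65, 6.76, 6.41, 6.64 and 6.40 in tumor and ran from 5.92 to 6.21 in spleen with a median of 6.02. Tumor libraries were above spleen libraries for each gene. Their difference from each other within libraries did not change with tissue by more than the spread (0.056, exact permutation p = 0.563, adjusted p = 0.658). Words shared with other genes made up 53.1% of Hspd1, mostly with its pseudogene Hspd1-ps3, and 30.5% of Hspe1.

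Hsf1 fell by 0.55 on the log2 scale (SE 0.075, adjusted p = 1.66e-05) and was the only one of the 10 called as lower. Its spleen libraries were tightly grouped, from 4.79 to 4.89 with a median of 4.86. Its tumor libraries stood at 4.45, 4.49 and 4.17 in WT and 4.16 and 4.23 in KO, all below spleen. The fall was larger under the other scalings, at 0.78, 0.80 and 1.15, and was called under each. Only 0.402% of its words occur in other genes. Hsf1 lies at chr15:76477422-76501913 on the plus strand.

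**Figure D2:**
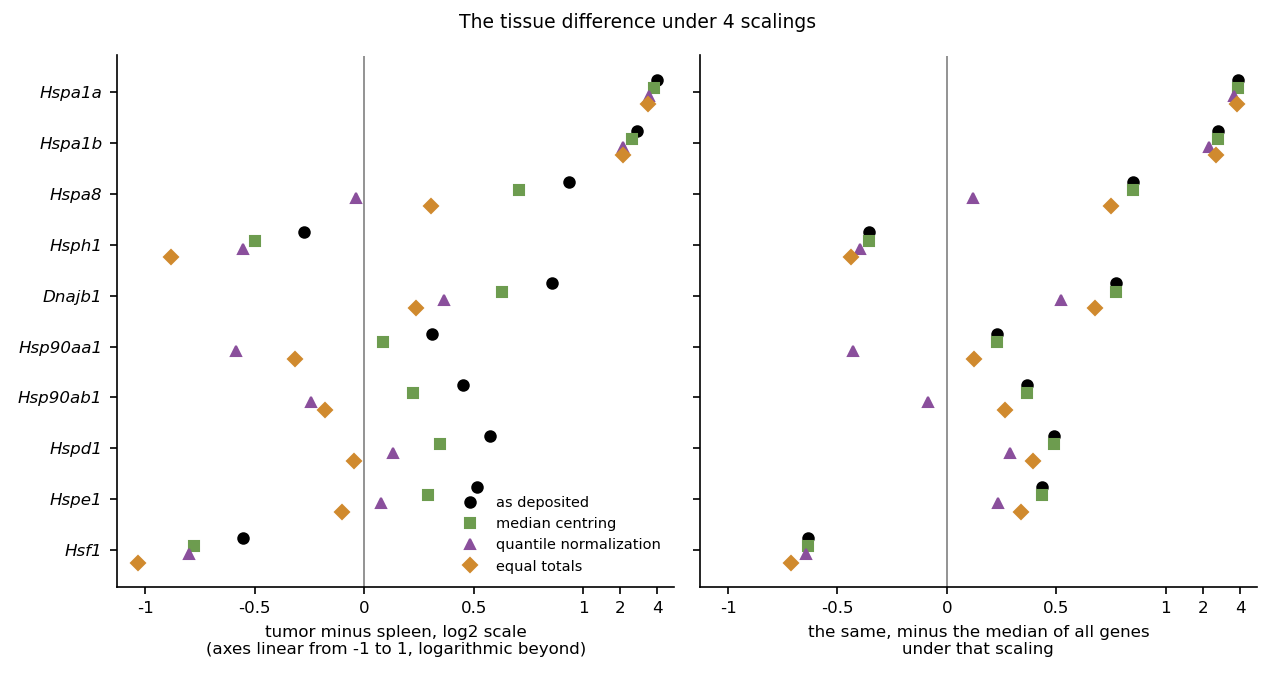
Tumor minus spleen difference of each gene on the log2 scale under 4 scalings of the values (left) and the same difference minus the median difference of all genes under that scaling (right), on axes that are linear from -1 to 1 and logarithmic beyond. Hspa1a and Hspa1b stay far to the right and Hsf1 to the left throughout. In the left panel Hspa8 changes sign after quantile normalization, Hspd1 and Hspe1 after equal totals, and Hsp90aa1 and Hsp90ab1 after each of these. In the right panel only Hsp90aa1 and Hsp90ab1 change sign, after quantile normalization.

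The scale of the values mattered for the smaller differences. The median difference over all genes was 0.08 as deposited, −0.14 after median centring, −0.16 after quantile normalization and −0.44 after equal totals. Over all genes, 5983 were called higher and 4988 lower as deposited, 4805 and 6269 after median centring, 4626 and 6358 after quantile normalization, and 3286 and 7819 after equal totals. Measured from the median gene, 8 of the 10 genes were above it as deposited, after median centring and after equal totals, and 6 were above it after quantile normalization. On that footing Hspa1a stood 3.58 to 3.88 above the median gene, Hspa1b 2.24 to 2.64, Dnajb1 0.52 to 0.77, Hspd1 0.29 to 0.49 and Hspe1 0.24 to 0.43. Hsph1 stood 0.36 to 0.44 below it and Hsf1 0.63 to 0.71 below. Hspa8 stood 0.12 to 0.85 above the median gene. Hsp90ab1 ran from −0.089 to 0.37 and Hsp90aa1 from −0.43 to 0.23, each below the median gene only after quantile normalization.

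The tissue difference was then read within each genotype. Within WT mice, 6 genes were called higher and 1 lower, against 39.2% and 31.3% of all genes. Within KO mice, 7 were called higher and 1 lower, against 36.2% and 29.5%. Hspa1a was 3.41 higher in WT tumor libraries (SE 1.03, adjusted p = 0.0122) and 4.60 higher in KO tumor libraries (SE 1.15, adjusted p = 0.00488). Hspa1b was 2.20 higher in WT (SE 0.94, adjusted p = 0.0573) and not called, and 3.33 higher in KO (SE 1.06, adjusted p = 0.0172). The Hspa1b difference within WT was called with a replicate block (adjusted p = 0.0429), in a fit of the WT libraries alone (0.0317), and without spleen WT replicate 3 (0.0303) or spleen KO replicate 1 (0.0238). The Hspa1a call within WT was lost without spleen WT replicate 1 (2.57, adjusted p = 0.0527), and the Hspa1b call within KO without spleen KO replicate 2, spleen KO replicate 3 or tumor KO replicate 1 (adjusted p 0.0529 to 0.134) or after quantile normalization (0.0558). Hsp90aa1 was called in neither genotype, with differences of 0.24 and 0.36. Without tumor KO replicate 1, which leaves a single KO tumor library whose spread is assumed to be like that of the other groups, 4 genes instead of 8 were called within KO mice.

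**Figure D3:**
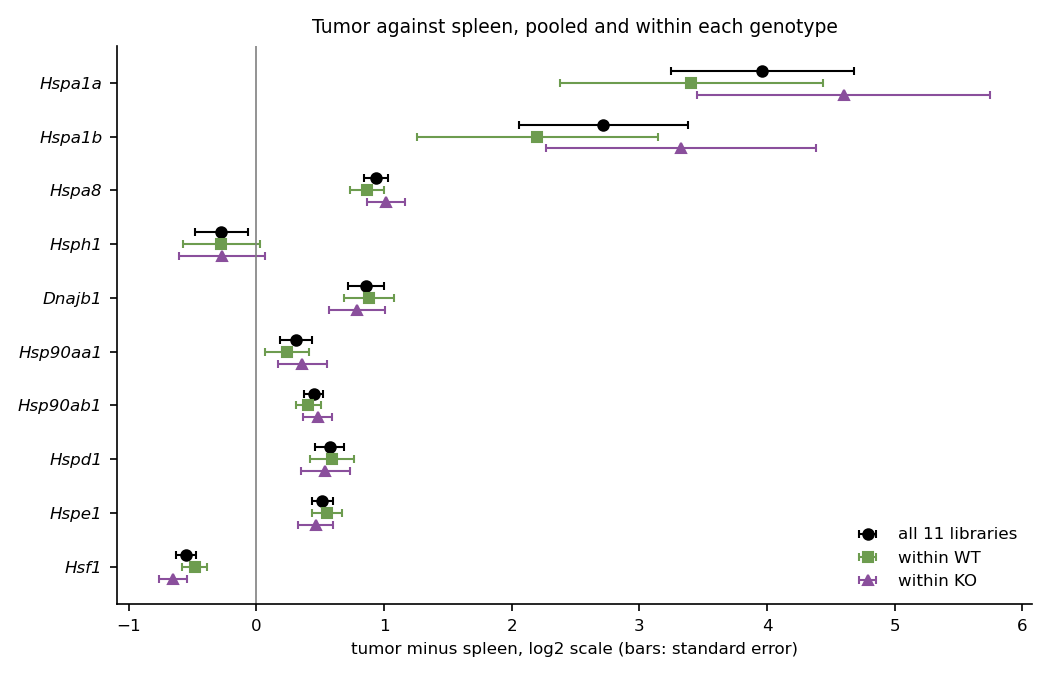
Tumor minus spleen difference of each gene on the log2 scale, over all 11 libraries and within each genotype, with standard errors as bars. Within WT the values run from −0.48 for Hsf1 to 3.41 for Hspa1a and within KO from −0.66 to 4.60. Over all 11 libraries the HSP90 genes change sign after quantile normalization and after equal totals, and the mitochondrial chaperonin genes after equal totals.

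Comparing KO with WT libraries gave no call among the 10 genes. In spleen, KO minus WT differences ran from −0.80 for Hspa1a (SE 1.03) to 0.0069 for Hsph1. In tumor they ran from −0.22 for Dnajb1 to 0.45 for Hspa1b (SE 1.06). The tissue difference did not depend detectably on genotype, with interaction terms from −0.17 for Hsf1 to 1.19 for Hspa1a (SE 1.54). None of the 10 had an unadjusted p below 0.05 by limma in any of these 3 comparisons. Over all genes tested, the called share was 0% in spleen, 0.0072% in tumor and 0% for the interaction, with 281, 634 and 383 genes at an unadjusted p below 0.05. The standard errors for Hspa1a and Hspa1b ran from 0.94 to 1.54 over these comparisons, so a doubling of either gene by genotype would not have been detectable with these libraries.

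The uneven Hspa1 level in spleen is set here beside other values in the same libraries, chosen from a larger set of lists. In order of rising Hspa1 sum, the spleen libraries were KO 3 at 4.45, KO 2 at 4.82, WT 1 at 5.12, WT 2 at 6.32, KO 1 at 7.84 and WT 3 at 7.86, so high and low libraries occurred in each genotype. In the same order of libraries Hsph1 was 5.35, 5.51, 5.69, 5.04, 4.64 and 4.75, so the 3 libraries with the most Hspa1 held its 3 lowest levels. HSP90 co-chaperones, summed over 17 genes, were 9.67, 9.73, 9.77, 9.63, 9.41 and 9.47 and were ordered the same way in this respect. Early response genes, 13 transcription factors and feedback regulators such as Fos and Egr1 that rise within minutes of cell handling, had sums of 11.12, 11.20, 10.92, 11.31, 11.59 and 11.73, highest in those 3 libraries. The T-cell and Treg sums were 11.23, 11.29, 11.25, 11.31, 11.39 and 11.34, also highest in those 3 libraries. The myeloid sums were 9.09, 9.86, 9.87, 8.82, 8.90 and 8.98, lowest in those 3. Some other list sums had no such order, among them other cytosolic J-domain genes and fibroblast markers (r with the Hspa1 sum −0.040 and −0.051). These are values side by side over 6 libraries, and the part of any of them in the Hspa1 level was not tested.

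In tumor the T-cell and myeloid sums were ordered against Hspa1 as in spleen, while the early response genes were ordered the other way. The Hspa1 sum was 8.21 in WT 3, 8.68 in WT 2, 8.70 in KO 2, 10.27 in KO 1 and 10.31 in WT 1. The libraries with the most Hspa1, WT 1 and KO 1, had the lowest sums of early response genes (12.34 and 12.51, against 12.84 to 13.08 in the other 3) and of myeloid markers (14.26 and 14.31, against 14.49 to 14.70). They had the highest sums of T-cell and Treg genes (11.31 and 11.32, against 10.70 to 10.89). Hspb1, the stress-induced small heat shock protein, belongs to the list whose sum was 4.36 and 4.42 there and 3.22 to 3.36 in the others. Hsph1 was 5.02 and 5.30 in these libraries and 5.07, 4.56 and 4.49 in WT 2, WT 3 and KO 2.

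**Figure D4:**
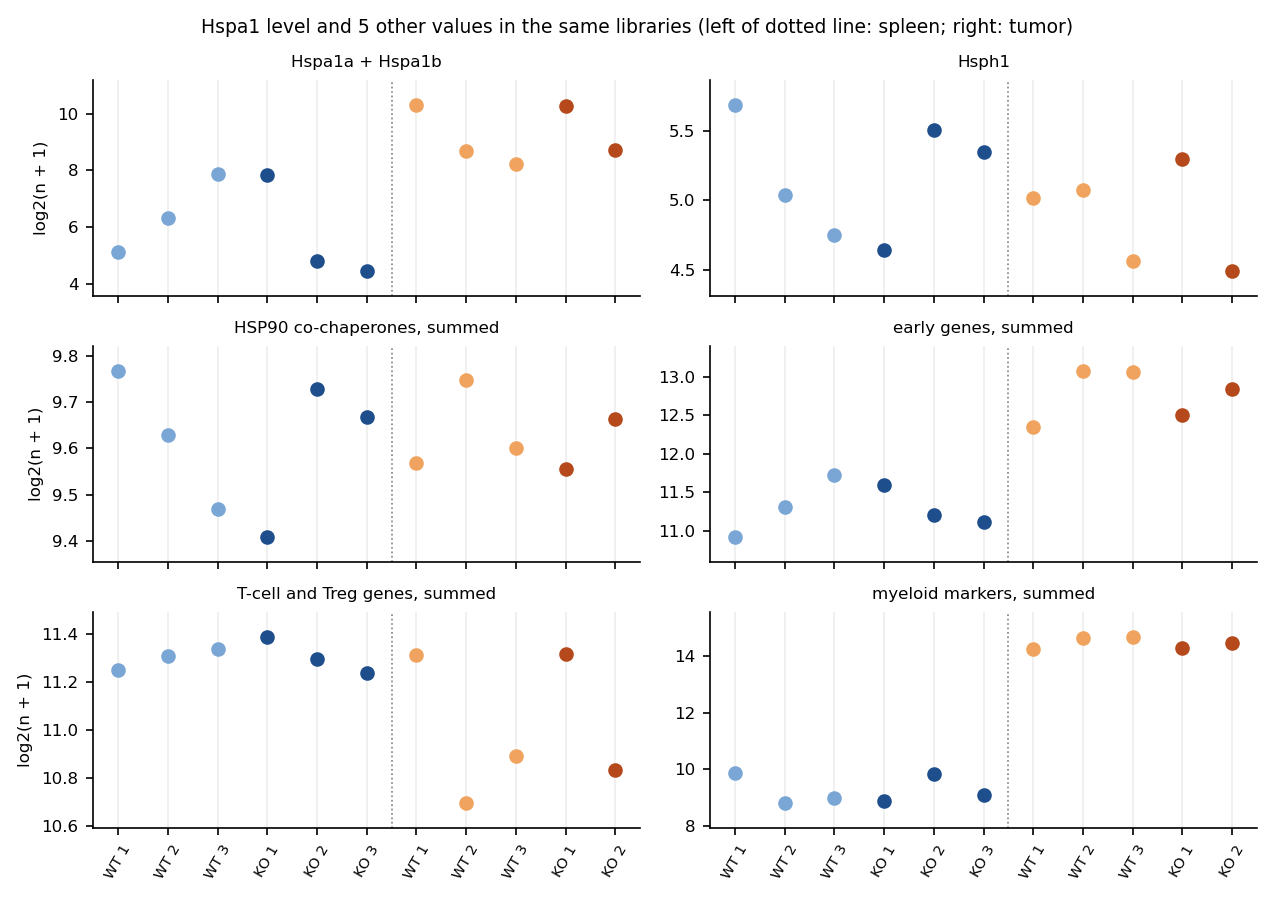
Summed Hspa1a and Hspa1b level, Hsph1, and the summed levels of 4 gene lists in each of the 11 libraries, as log2(n + 1), with spleen left and tumor right of the dotted line. Among spleen libraries WT 2, WT 3 and KO 1 have the highest Hspa1 and the lowest Hsph1 and co-chaperone levels, and among tumor libraries WT 1 and KO 1 have the highest Hspa1 and the lowest myeloid and early gene sums.

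The genes whose level most resembled the Hspa1 sum over the 11 libraries by Pearson's r were Neb, Rnaset2b, Rilpl2, Jund and Tvp23b, with r from 0.93 to 0.94. By deviations from the 4 group means they were Tbc1d23, Qrich1, Cirbp, Fam214a and Slc14a1, with r from 0.95 to 0.97. Cirbp, an RNA-binding protein induced by mild cold, was highest in KO 1 among the spleen libraries, stood at 5.70 in WT 3 and at 5.44 in WT 2, and ran from 5.30 to 5.47 in the other 3. For Hspd1 the closest levels were those of Tmcc2, Cct6a, Commd7, Col14a1 and Tnrc18 (r 0.96 to 0.97), of which Cct6a is a subunit of the cytosolic chaperonin TRiC, and the closest deviations those of Sart3, Rbm45, Scly and Fcgrt (0.95 to 0.99). For Hsp90ab1 they were Rrp1, Bcr, Tsen34, Pttg1ip and Rilp (0.97 to 0.98) and Klf10, Bdkrb1, Prpf6, Zfp422-ps and Kctd20 (0.93 to 0.96). These are the best of 13897 genes over libraries that share tissue and scaling, so the values are descriptions.

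The wider chaperone network moved unevenly. Over 8 further lists, 77 genes were tested, of which 42 were called higher in tumor, 14 lower and 21 not called in the deposited values. The background was the same 43.1% and 35.9%. After equal totals, falls outnumbered rises over all 13897 genes tested (7819 against 3286). They also did so for J-domain genes (11 against 0), HSP90 co-chaperones (12 against 0) and exchange factors and partners (3 against 2). The same held for the mitochondrial list (4 against 2) and for TRiC and prefoldin (5 against 2). Under that scaling other HSP70 genes gave 4 rises and 3 falls, small heat shock proteins 1 and 0, and HSF genes 1 and 1. Among 8 other HSP70 and HSP110 genes, 5 rose and 2 fell, with Hspa2 up by 1.88 (adjusted p = 8.65e-07) and Hspa13, a microsomal form, up from 3.17 ± 0.11 in spleen to 4.67 ± 0.13 in tumor (SD, adjusted p = 3.61e-09), while Hspa12b and Hspa14 fell by 0.51 and 0.18. HSP70 exchange factors and other partners gave 5 rises and 0 falls among 8 genes as deposited. The counts were 4 and 1 after quantile normalization and 2 and 3 after equal totals. The largest rises were those of Bag3, which links HSP70 to autophagy and is itself an HSF1 target, at 1.68 (adjusted p = 4.38e-09), and Bag1 at 1.14. Hspb1 rose by 1.60 (adjusted p = 0.00107) as 1 of 2 small heat shock protein genes tested, from 1.12 to 1.98 in spleen to 1.81 to 4.25 in tumor with overlap.

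Co-chaperones did not follow as a block. Mixed calls were also the background, at 43.1% higher and 35.9% lower over all genes as deposited. After median centring, quantile normalization and equal totals all genes gave 4805, 4626 and 3286 rises and 6269, 6358 and 7819 falls. Among 13 other cytosolic J-domain genes, 5 rose and 3 fell as deposited, but 0 rose and 11 fell after equal totals. Their median difference was 0.18, while the difference of their summed level was −0.34. Dnajc7 fell by 1.13 (adjusted p = 1.31e-08) and Dnaja1 by 0.71 (adjusted p = 0.000311), while Dnaja2 and Dnajb4 rose by 0.58 and 0.44. Of 17 HSP90 co-chaperones, 5 rose, 8 fell and 4 were not called, with 0 to 1 rises and 9 to 12 falls under the other scalings. Leaving out spleen WT replicate 2, spleen WT replicate 3, spleen KO replicate 3 or tumor KO replicate 1 gave 3 rises, and leaving out tumor WT replicate 3 or tumor KO replicate 2 gave 2, with 8 falls each time. Their median difference was −0.22 and that of their summed level 0.014. Ptges3, the p23 protein that stabilises closed HSP90, rose by 0.57 (adjusted p = 3.81e-05) and Ahsa1, the activator of its ATPase, by 0.36 (adjusted p = 0.0350). Chordc1 and Ahsa2 fell by 0.83 and 0.66 (adjusted p = 0.000588 and 0.000404).

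In mitochondria, 7 of 12 other chaperones and proteases rose and 1 fell, against 2 and 4 after equal totals. Hspa9, the HSP70 of the matrix that imports proteins, rose by 1.24 (adjusted p = 3.30e-06), more than Hspd1 or Hspe1. Hscb, its partner in iron-sulfur cluster assembly, rose by 0.90, and Grpel2 fell by 0.27. The cytosolic chaperonin TRiC and prefoldin gave 12 rises of 14 as deposited, with Pfdn1 at 1.25 and Pfdn5 at 0.87. After equal totals they gave 2 rises and 5 falls, against 3286 and 7819 over all 13897 genes tested. Of 3 genes tested among HSF relatives and HSF1 regulators, Hsbp1, which binds the HSF1 trimer, rose by 1.42 (adjusted p = 2.04e-08) and Hsf2 by 0.53 (adjusted p = 0.000720).

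Endoplasmic reticulum (ER) chaperones, which are controlled by the unfolded protein response rather than by HSF1, rose in 12 of 13 genes, with 10 or 11 rises and 1 fall under the other scalings. Their median difference was 1.35. Sdf2l1 rose by 2.33 (adjusted p = 4.26e-09) and the disulfide isomerase Pdia6 by 1.66 (adjusted p = 6.54e-09). The early response genes rose in 12 of 13 as deposited and in 8 of 13 after equal totals, with Ier3 up by 7.23 and Atf3 by 5.55. Their summed level was 10.92 to 11.73 in spleen and 12.34 to 13.08 in tumor, beside the rise of Hspa1a and Hspa1b, and their part in that rise was not tested.

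**Figure D5:**
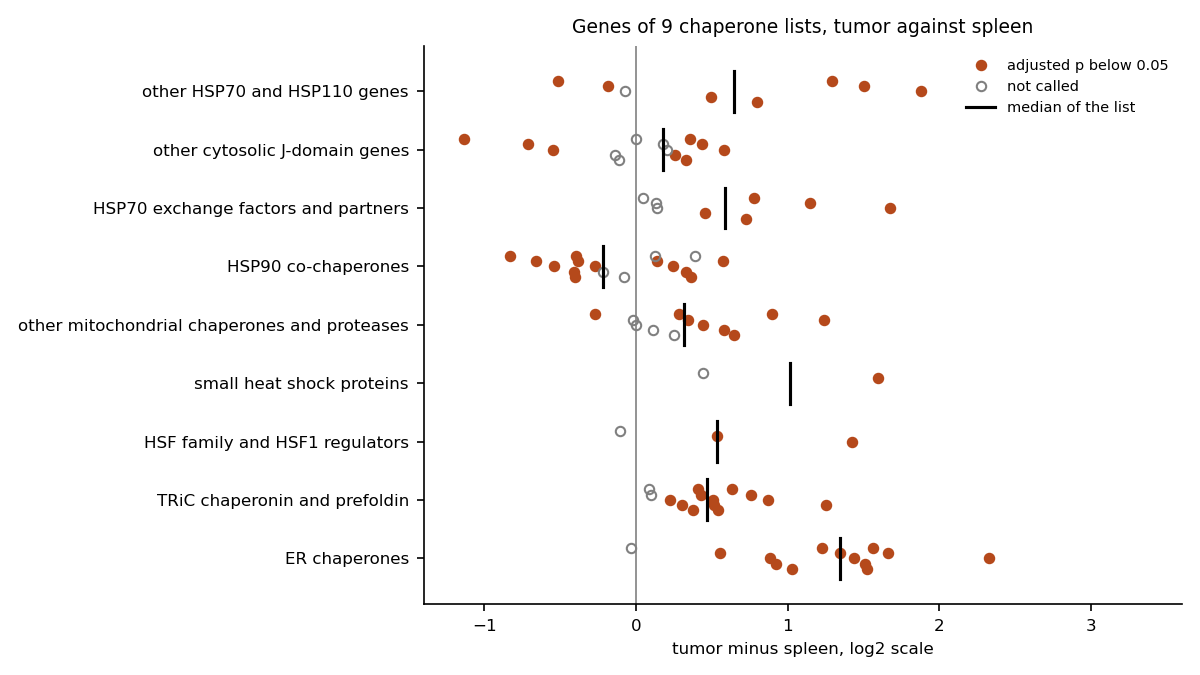
Tumor minus spleen difference of each tested gene in 9 chaperone lists on the log2 scale, with called genes filled, other genes open and list medians as black bars. ER chaperones lie furthest to the right with a median of 1.35, and HSP90 co-chaperones are the only list with a median below 0, at −0.22, in the deposited values. After equal totals the J-domain list has 0 rises and 11 falls and the TRiC and prefoldin list 2 rises and 5 falls. Over all 13897 genes tested, that scaling gives 3286 rises and 7819 falls.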

How the data were processed

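Single-end reads of rRNA-depleted RNA from 11 libraries were pseudoaligned by the authors with kallisto to mm10, and estimated counts were processed in sleuth 0.30.0 (submitters' processing notes) and summed by gene symbol. The deposited table holds log2(n + 1) per gene and library, as the authors made it, where the scaling of n is not given in the sources used here. These values do not give the reads behind each gene, so no counting interval is given.

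The values were used as deposited. Genes with a mean of at least 0.5 were kept, which removed 707 genes. Groups were taken from the sample labels, and tissues were compared with limma 3.58.1 (R 4.3.3, trended empirical Bayes) over all genes, by tissue alone and with 4 groups for the contrasts within genotype, between genotypes and of their interaction. P-values were Benjamini-Hochberg adjusted and called below 0.05. Sums and differences within libraries were tested by exact two-sided permutation (scipy 1.17.1). Spleen and tumor libraries share mice per the study's methods, but the labels do not say which libraries share a mouse. The tests treat the 11 libraries as independent, and p-values measure the spread between them. The fits were tested on simulated data. Alternatives were quantile normalization, median centring, equal totals, pseudocounts of 0.1 and 5, filters, variance models, Bonferroni adjustment, a replicate block, a genotype covariate, and leaving out each library. Equal totals without Gm12896 was added after seeing the data.

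The genes and lists were chosen with earlier results of these data known. Named genes were the 10 chaperone genes, up to 2 called genes with the largest rise and 2 with the largest fall of each list, the 2 highest markers in tumor of each marker list, and the 5 genes closest to the Hspa1 sum, Hspd1 and Hsp90ab1, of which 1 is not reported here. Foxp3, Fos, Egr1 and Cd177 were named outside this rule. Beside the myeloid and fibroblast markers, 7 B-cell markers gave 1 higher and 4 lower, and 10 CD8 and NK markers 6 and 1. The 7 erythroid and platelet markers gave 1 and 5, 4 tumor epithelial markers 1 and 1, and 13 T-cell and Treg genes 2 and 8. Shared 31-base words and positions came from GENCODE M21 (GRCm38) and promoters from RefSeq (GRCm38.p6).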

Additional observations from a re-analysis of the deposited data

Results flagged for a closer look

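Dnajb1 in spleen held 1 library apart from the others. Spleen KO replicate 3 stood at 5.83, while the other 5 spleen libraries ran from 6.07 to 6.20, a gap to the nearest of them that was beyond Dixon's critical value for 6 samples. It was the only one among 66 groups tested, where chance gives about 1 in 20, or 3.3. All tumor libraries were above this library and above the other spleen libraries.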

How the results depend on the processing

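The Hspa1a rise and the Hsf1 fall kept their direction under all 24 alternatives, and of 240 alternative values of the 10 tumor against spleen differences 204 kept direction and call, 21 lost the call, 4 gained it and 11 reversed; the cause was not tested. With Bonferroni adjustment 5051 genes and 1 of the 10 were called, and 0 within WT and 0 within KO. Within WT, 4 of the 10 were called after quantile normalization, 3 after equal totals and 3 after equal totals without Gm12896. Within KO the counts were 2, 3 and 4, and 5 after median centring, and leaving out single libraries gave 4 to 8, the lowest without tumor KO replicate 1. Leaving out tumor WT replicate 2 gave 1 fall among other HSP70 genes in place of 2, and leaving out spleen WT replicate 3 or either tumor KO library gave 2 small heat shock protein rises in place of 1.

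After quantile normalization the difference was −0.038 for Hspa8, −0.58 for Hsp90aa1 (−0.68 within WT, −0.50 within KO) and −0.25 for Hsp90ab1. After equal totals, and then without Gm12896, it was −0.32 and −0.31 for Hsp90aa1 (−0.37 and −0.41 within WT, −0.28 and −0.23 within KO), −0.18 and −0.17 for Hsp90ab1, −0.048 and −0.044 for Hspd1, and −0.10 and −0.099 for Hspe1. Near 0, signs of genotype terms turned: in the interaction Hsph1 was −0.024 after equal totals and Hspd1 0.0096 without Gm12896. In spleen, KO minus WT was −0.0065 and −0.0089 for Hsph1 after quantile normalization and without Gm12896, and 0.063, 0.053 and 0.061 for Hsf1, Hspd1 and Hspe1 after equal totals. In tumor it was 0.039 for Hsp90ab1 after quantile normalization. None of these genotype terms was called by limma.

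Within libraries, the Hspa1 sum differed by 2.56, 2.55 and 2.55 after quantile normalization, equal totals and equal totals without Gm12896. After quantile normalization Hsph1 minus Hspa8 was −0.52 and Dnajb1 minus Hspa8 0.40, none past the corrected exact permutation test. Leaving out single libraries moved Dnajb1 minus Hspa8 from −0.22 to 0.038.

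Same-numbered spleen and tumor deviations from group means correlated at −0.13, 0.0070 and −0.07 in WT and 0.02 and 0.04 in KO. With groups of 2 or 3 libraries these deviations depend on each other, and those of the 2 KO tumor libraries are mirror images. The values therefore cannot say whether replicate numbers mark the same mouse. With the replicate block 10512 genes and 8 of the 10 were called, without Hsp90aa1 (0.30, limma adjusted p = 0.0945), and 8 within WT and 7 within KO. Blocked, the Hspa1 sum differed by 2.84 and Hsph1 minus Hspa8 by −1.16, where 5 pairs cannot give an exact p below 0.0625.

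Leaving out single libraries turned the sign of small genotype terms. The interaction ran from −0.40 to 0.41 for Hsph1, −0.44 to 0.25 for Dnajb1, −0.15 to 0.39 for Hsp90aa1, −0.012 to 0.16 for Hsp90ab1, −0.21 to 0.092 for Hspd1 and −0.21 to 0.033 for Hspe1. KO minus WT in spleen ran from −0.020 to 0.032 for Hsf1, −1.97 to 0.049 for Hspa1a, −0.19 to 0.0094 for Hspa8, −0.20 to 0.27 for Hsph1, −0.10 to 0.15 for Hspd1 and −0.073 to 0.075 for Hspe1. In tumor it ran from −0.28 to 1.07 for Hspa1a, −0.42 to 1.32 for Hspa1b, −0.0034 to 0.16 for Hspa8, −0.39 to 0.42 for Hsph1, −0.56 to 0.12 for Dnajb1, −0.37 to 0.17 for Hsp90aa1, −0.15 to 0.019 for Hsp90ab1, −0.15 to 0.080 for Hspd1 and −0.21 to 0.030 for Hspe1.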
